A study of Mus musculus with 6 samples.

Results

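The transcription factors that give retinal cells their identity were examined in the retina of mice that carry 1 altered copy of Myrf. The group holds 42 genes, taken by symbol from a list of factors that specify or maintain retinal cell classes, out of 55450 genes in the deposited table. Each symbol was found once. Myrf codes for myelin regulatory factor, a transcription factor best known from oligodendrocytes, where it activates genes of the myelin sheath. Retina was sequenced from C57BL/6 mice aged 8 weeks, in 3 libraries labelled Myrf-kd, described as Myrf +/−, and 3 wild-type (WT) libraries. The sources used here do not give how the Myrf allele was altered or whether each library is a separate animal, so p-values measure the spread between these libraries, which may be technical.

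In the mature retina, rods and cones, bipolar, horizontal, amacrine and ganglion cells and Mueller glia each keep a combination of such factors switched on. CRX and OTX2 are homeodomain proteins that activate photoreceptor genes, and NRL with its target NR2E3 directs photoreceptor precursors to the rod fate. PAX6, LHX2, SIX3, SIX6 and RAX act in the early eye field and are kept in subsets of adult cells. RNA of the retina sums all its cells, so fewer cells of a type and less RNA per cell cannot be told apart.

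Depth ran from 50695091 units of estimated count in WT 2 to 70298511 in WT 3. Fragment numbers given here assume 4 units per sequenced fragment. Xist and 4 genes of the Y chromosome marked Myrf-kd 3 and WT 3 as female and the other 4 libraries as male. Myrf was listed at 0.359, 0.397 and 0.463 FPKM (fragments per kilobase of transcript, scaled to depth) in WT 1, 2 and 3 and at 0.279, 0.382 and 0.351 FPKM in Myrf-kd 1, 2 and 3. The groups overlapped (exact two-sided permutation p = 0.2, where 3 libraries against 3 cannot go below 0.1). With a mean under 1 FPKM, Myrf was not tested in the fit below. Its values rest on about 45 to 80 fragments in a library. Rod, cone, bipolar, amacrine, horizontal, ganglion and Mueller glia marker lists were each detected in every library. Markers of lens, an adjoining tissue, summed to between 18.1 and 28.5 CPM (counts scaled to a common library total, with trimmed mean of M values, TMM) in WT and to 2.51, 1.82 and 73.6 CPM in Myrf-kd 1, 2 and 3. Of 12 lens markers, 8 were at 0 in at least 1 library, the crystallin gene Cryaa and the lens channel gene Mip among them. Markers of cornea summed to between 6.9 and 10.5 CPM in Myrf-kd and between 21.3 and 30.5 CPM in WT, and 4 of the 11, Krt5 and Krt14 among them, were at 0 in at least 1 library. Those of the retinal pigment epithelium, 11 genes with none at 0, summed to between 147 and 188 CPM in Myrf-kd and between 179.9 and 236 CPM in WT. The part of these tissues in the results below was not tested.

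Upstream sequences are shown for the photoreceptor factors on which the results turn: Crx, the factor with the highest level, Mef2d and Esrrb, which had the largest steps between libraries, and Nr2e3, which was low in Myrf-kd 3. RefSeq promoter windows on GRCm38.p6 were at hand for 36 of the 42 factors (52 windows of 300 bases, from 250 before to 50 after a start site). Each sequence is the longest stretch before the start site that lies outside annotated exons, read 5′ to 3′ along the gene. Capitals mark TAATCC, the core bound by CRX and OTX2, and TGCTGA, the core bound by NRL and related MAF proteins, on either strand.
Crx, chr7:15879969-15880205, minus strand: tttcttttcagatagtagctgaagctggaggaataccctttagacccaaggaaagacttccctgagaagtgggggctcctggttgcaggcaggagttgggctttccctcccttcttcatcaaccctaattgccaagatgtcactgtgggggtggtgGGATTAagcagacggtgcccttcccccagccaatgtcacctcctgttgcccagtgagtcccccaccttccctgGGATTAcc
Nr2e3, chr9:59950118-59950329, minus strand: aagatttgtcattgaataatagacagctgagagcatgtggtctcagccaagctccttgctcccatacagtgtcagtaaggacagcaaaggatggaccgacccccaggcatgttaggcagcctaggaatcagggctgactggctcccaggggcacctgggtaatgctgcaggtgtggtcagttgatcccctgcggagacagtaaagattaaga
Mef2d, chr3:88142122-88142371, plus strand: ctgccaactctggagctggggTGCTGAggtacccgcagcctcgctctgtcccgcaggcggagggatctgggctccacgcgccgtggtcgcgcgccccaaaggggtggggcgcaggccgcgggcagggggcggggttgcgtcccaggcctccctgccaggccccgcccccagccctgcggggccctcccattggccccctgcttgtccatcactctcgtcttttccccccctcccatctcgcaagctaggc
Esrrb, upstream start, chr12:86360867-86361116, plus strand: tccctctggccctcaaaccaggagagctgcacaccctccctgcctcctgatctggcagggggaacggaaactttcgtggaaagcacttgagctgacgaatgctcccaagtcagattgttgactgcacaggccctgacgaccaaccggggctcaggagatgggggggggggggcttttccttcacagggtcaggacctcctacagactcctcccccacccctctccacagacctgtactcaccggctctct
Esrrb, downstream start, chr12:86421394-86421643, plus strand: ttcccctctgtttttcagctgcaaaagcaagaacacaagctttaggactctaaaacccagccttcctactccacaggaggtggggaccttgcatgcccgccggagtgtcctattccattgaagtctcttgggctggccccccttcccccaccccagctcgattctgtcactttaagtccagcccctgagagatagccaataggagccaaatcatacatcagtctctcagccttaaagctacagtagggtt
The Crx stretch held 2 copies of TAATCC, both as GGATTA on the gene's strand, and the Mef2d stretch 1 copy of TGCTGA. Neither motif was in the stretches of Nr2e3 and Esrrb. Over full windows, TAATCC was in 3 of 21 windows of photoreceptor factors (14.3%), those of Crx, Otx2 and Thrb, and in 1 of 31 windows of the other factors (3.23%). Of all 32851 windows 7.06% held it. TGCTGA was in 6 of 21 windows of photoreceptor factors (28.6%), in 7 of 31 of the others (22.6%) and in 19.5% of all windows. These counts describe letters, and binding was not measured. The G and C share of the Mef2d stretch was 73.2%, against 54.4% in that of Crx. Over full windows the share was 53.8% for photoreceptor factors, 60.5% for the other factors and 53.8% for all windows. The part of this base content in the motif counts was not tested.

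Which of the cell fate factors differ between Myrf +/− and wild-type retina was read from a fit over all genes with a mean of at least 1 FPKM. Of the 42 factors, 38 were tested, and 0 passed at an adjusted p of 0.05 (edgeR, quasi-likelihood, with Benjamini-Hochberg adjustment over all tested genes). Over all 13673 tested genes 6 passed (0.0439%), with 0.0293% higher and 0.0146% lower in Myrf-kd. DESeq2 and limma on log2(FPKM + 1) also called 0 of the 38, where they called 0.388% and 0.0439% of all genes. By edgeR, 4 of 38 factors (10.5%) had an unadjusted p under 0.05, beside 7.49% of all genes. Of the 4, 3 were higher in Myrf-kd, as were 3.76% of all genes, and 1 was lower, as were 3.73%. The estimate was higher in Myrf-kd for 17 factors and lower for 21, beside 51.0% and 49.0% of all genes. The factors had a median log2 fold change of −0.01, beside 0.004 over all tested genes. For 34 of the 38 factors (89.5%) the 95% interval of the fold excluded both a doubling and a halving, as it did for 88.2% of all genes. Esrrb, Mef2c, Mef2d and Pou4f3 were the factors whose interval did not.

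**Figure D1:**
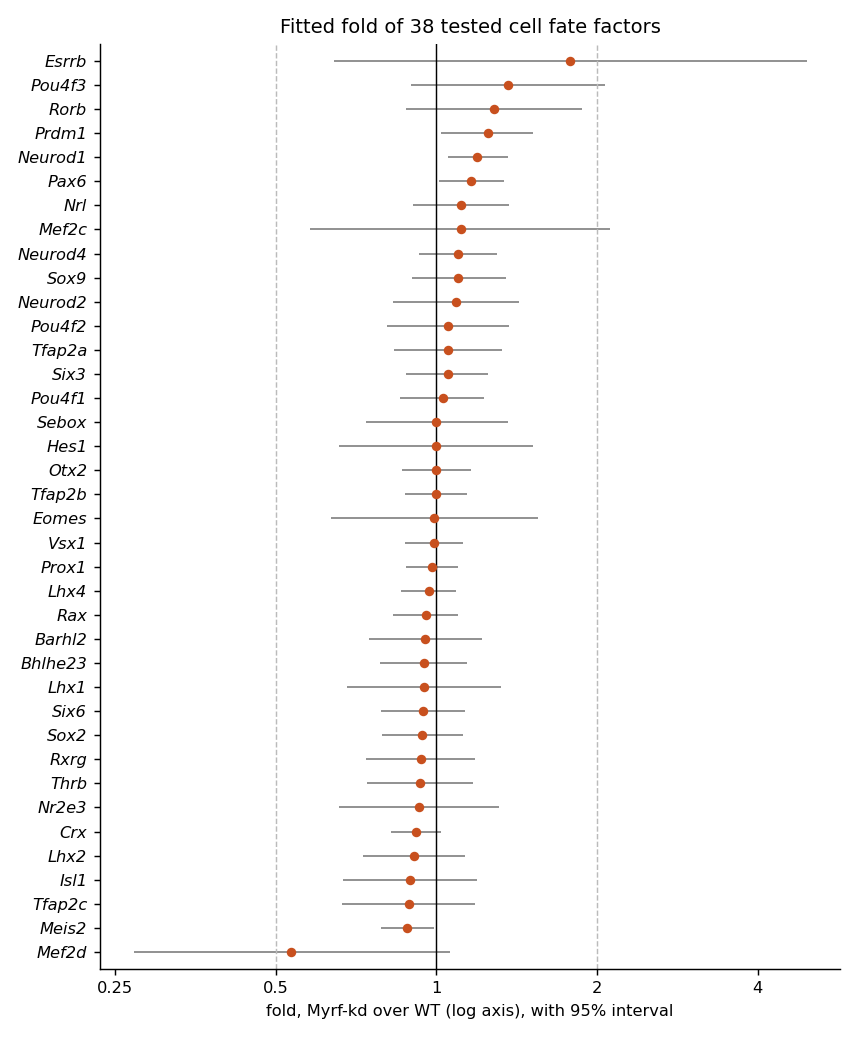
Fitted fold of Myrf-kd over WT (log axis) for the 38 tested factors; points are edgeR estimates from 3 libraries a group, lines their 95% intervals, and dashed lines mark 0.5 and 2. Most intervals include 1 and lie between the dashed lines, and that of Esrrb, from 0.644 to 4.94, is the widest.

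Levels per transcript length spanned from 291 FPKM for Crx to 0.046 FPKM for Pax2 (means over 6 libraries). The 5 highest factors, Crx, Nrl, Nr2e3, Neurod1 and Mef2d, were all of the photoreceptor group. Of 41 neighbouring pairs in the order of levels, 5 had ranges over the 6 libraries that did not overlap: Crx above Nrl, Tfap2b above Six6, Barhl2 above Tfap2c, Lhx9 above Onecut2, and Onecut2 above Pax2. In the other 36 pairs the ranges overlapped, which does not exclude the same order within each library. Sox2, for one, was above its neighbour Rax in every library.

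**Figure D2:**
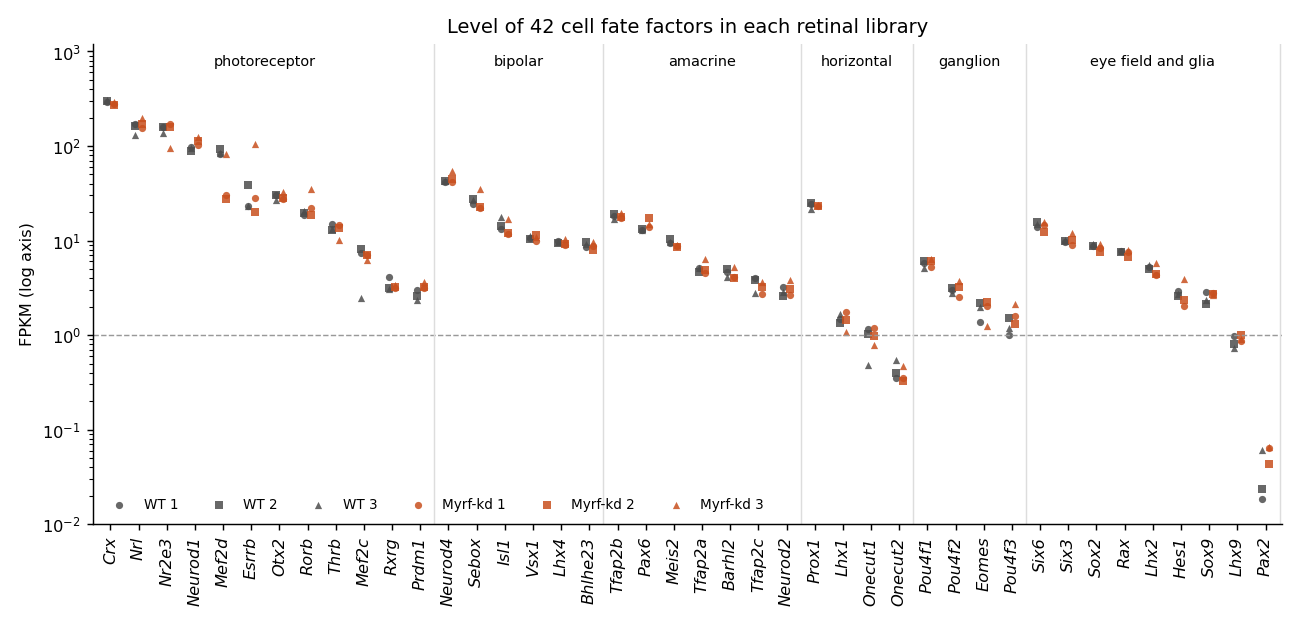
FPKM (log axis) of each of the 42 factors in each library, grouped by cell class and ordered by mean; grey marks are WT, orange marks Myrf-kd, and the dashed line is at 1 FPKM. Crx lies highest at 291 FPKM and Pax2 lowest, while Esrrb, Mef2d and Mef2c each have libraries set apart from the rest.

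Of the photoreceptor factors, Crx (ENSMUSG00000041578) was at 295, 301 and 309 FPKM in WT 1, 2 and 3 and at 279, 269.6 and 292 FPKM in Myrf-kd 1, 2 and 3. Every Myrf-kd library lay below every WT library, by a small margin. The fitted fold was 0.916, with a 95% interval from 0.824 to 1.02 (edgeR adjusted p = 0.697). Crx was also among the steadiest of the genes, since only 4.12% of all tested genes had a smaller spread within groups. Its relative Otx2, which acts above Crx in photoreceptor precursors and is kept in bipolar cells and pigment epithelium, was at 30.1, 30.6 and 26.9 FPKM in WT and at 27.8, 28.2 and 32.8 FPKM in Myrf-kd. The groups overlapped, and the fitted fold was 1.00 (interval 0.864 to 1.16). In each library Crx exceeded Otx2 between 8.90- and 11.5-fold.

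The rod factor Nrl (ENSMUSG00000040632) was at 170.3, 163 and 131 FPKM in WT 1, 2 and 3 and at 156, 171 and 198 FPKM in Myrf-kd 1, 2 and 3. The female libraries were the extremes, WT 3 lowest and Myrf-kd 3 highest, and the groups overlapped. Nr2e3 (ENSMUSG00000032292), which represses cone genes in rods, was at 159, 158 and 137 FPKM in WT and at 169.8, 160.5 and 95.6 FPKM in Myrf-kd. Myrf-kd 3 was the lowest library for Nr2e3 and the highest for Nrl. The ratio of Nrl to Nr2e3 was accordingly 2.07 in Myrf-kd 3 and between 0.916 and 1.07 in the other 5 libraries. By edgeR the adjusted p for the genotype was 0.761 for Nrl and 0.904 for Nr2e3. Gm15507 and Gm7616 overlap Nr2e3, and whether strand was kept is not given, so their reads may not be separated from those of Nr2e3. Gm15507, on the same strand, was at 2.24 FPKM in Myrf-kd 3 and at 3.84 FPKM or more in the other libraries. Gm7616, on the opposite strand, was at 2.51 FPKM in Myrf-kd 3 and at 5.8 FPKM or more in the other libraries.

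Esrrb (ENSMUSG00000021255, chr12:86361117-86521628), an orphan nuclear receptor of rods, was at 23.2, 38.5 and 23.3 FPKM in WT 1, 2 and 3. Myrf-kd 1, 2 and 3 were at 27.9, 20 and 106 FPKM. Myrf-kd 3 alone stood apart, 2.75-fold above the next library, while the other Myrf-kd libraries lay within or below the WT range. The fitted fold was 1.78 with an interval from 0.644 to 4.94 (edgeR adjusted p = 0.745). Without Myrf-kd 3 the log2 fold change of Esrrb went from 0.83 to −0.26, so its direction rested on that library. Of all tested genes, 97.6% had a smaller spread within groups.

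Mef2d (ENSMUSG00000001419, chr3:88142372-88172086), a MADS-box factor that works with CRX at photoreceptor genes, was at 82.4, 92.9 and 84.5 FPKM in WT 1, 2 and 3. In Myrf-kd 1, 2 and 3 it was at 30.2, 27.7 and 82.8 FPKM. The male Myrf-kd libraries were low and the female one was at the WT level. The mean was 86.6 ± 5.53 FPKM in WT and 46.9 ± 31.1 FPKM in Myrf-kd (SD, n = 3 each), with a fitted log2 fold change of −0.90 ± 0.41 SE (edgeR adjusted p = 0.685). Without Myrf-kd 3 the log2 fold change was −1.60 and Mef2d passed (edgeR adjusted p = 0.0104), where 0.117% of all genes did. With male libraries only, 2 against 2, it was −1.62 (edgeR adjusted p = 0.0365), where 0.161% of all genes passed. The male libraries are those without the females WT 3 and Myrf-kd 3, which were left out after earlier results of these data had shown Myrf-kd 3 to stand apart. The difference between the sexes in the genotype effect was −1.57 on the log2 scale, males minus females, and did not pass (edgeR adjusted p = 0.082; 0.124% of all genes passed). Each sex and genotype has at most 2 libraries and females have 1 each, so sex and library cannot be told apart. The antisense gene 1700113A16Rik overlaps Mef2d and was at 0.939, 0.942 and 1.06 FPKM in WT 1, 2 and 3 and at 1.91, 0.932 and 0.636 FPKM in Myrf-kd 1, 2 and 3. For this antisense gene Myrf-kd 1 was the highest library and Myrf-kd 3 the lowest, while Myrf-kd 2 was close to WT 1 and 2. Its reads may be shared with Mef2d, and its part in the Mef2d values was not tested.

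Its paralog Mef2c, which acts in neurons and vascular cells, departed in another library. Mef2c was at 7.31, 8.09 and 2.48 FPKM in WT 1, 2 and 3 and at 6.95, 6.95 and 6.15 FPKM in Myrf-kd 1, 2 and 3. WT 3 was 2.48-fold below the next library, and the others lay close together. The genotype fold was 1.11 (interval 0.581 to 2.11), and without WT 3 the log2 fold change of Mef2c went from 0.15 to −0.22. The sex difference of the genotype effect was −1.46 on the log2 scale for Mef2c (edgeR adjusted p = 0.0667). As a result the ratio of Mef2d to Mef2c ran from 3.99 in Myrf-kd 2 to 34.1 in WT 3. Esrrb, Mef2c and Mef2d were 3 of the 38 tested factors with a step of at least 2-fold between neighbouring libraries, which 4.71% of all tested genes had.

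**Figure D3:**
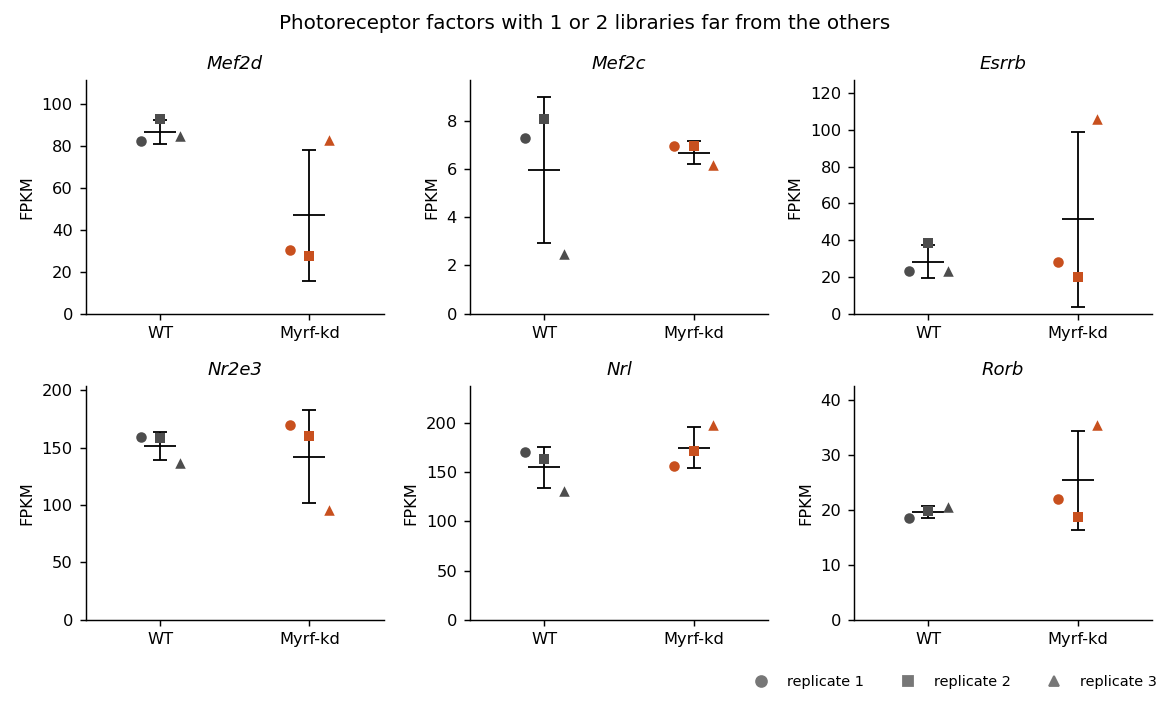
FPKM of 6 photoreceptor factors in each library (marks; shapes give the replicate number), with the mean and SD of 3 libraries as bars, on axes from 0. Mef2d is low in Myrf-kd 1 and 2, Mef2c in WT 3 and Nr2e3 in Myrf-kd 3, while Esrrb, Nrl and Rorb are highest in Myrf-kd 3.

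Rorb, a nuclear receptor upstream of Nrl, was at 18.4, 19.7 and 20.5 FPKM in WT 1, 2 and 3 and at 21.9, 18.6 and 35.4 FPKM in Myrf-kd 1, 2 and 3. Myrf-kd 3 was again the highest library, and the fitted fold of 1.28 (interval 0.878 to 1.87) became a log2 fold change of 0.03 without it. Thrb, the thyroid hormone receptor needed for cones with M opsin, was at 15.0, 12.8 and 13.1 FPKM in WT and at 14.7, 13.7 and 10.2 FPKM in Myrf-kd. Its partner Rxrg, also of cones, was at 4.09, 3.15 and 3.07 FPKM and at 3.15, 3.21 and 3.39 FPKM. Both cone factors had overlapping groups and fitted folds of 0.932 and 0.934. Summed markers of cones, which hold neither gene, lay between 1107 and 1237 CPM in WT and between 1207 and 1238 CPM in Myrf-kd.

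Prdm1 and Neurod1 were the photoreceptor factors with higher values in every Myrf-kd library. Prdm1, which keeps photoreceptor precursors from becoming bipolar cells, was at 3.03, 2.57 and 2.37 FPKM in WT 1, 2 and 3 and at 3.15, 3.20 and 3.68 FPKM in Myrf-kd 1, 2 and 3. These Prdm1 values rest on 211 to 404 fragments in a library. Neurod1, a bHLH factor that maintains photoreceptors, was at 97.2, 89.1 and 94.3 FPKM in WT and at 103, 112 and 124 FPKM in Myrf-kd. The fitted fold was 1.25 (interval 1.02 to 1.52) for Prdm1 and 1.19 (interval 1.05 to 1.36) for Neurod1. Their unadjusted p-values in edgeR were 0.036 and 0.0145, and adjusted over all tested genes both became 0.666. For Prdm1 the log2 fold change ran from 0.17 to 0.41 over every alternative setting but the minimum of 5 FPKM, which it did not reach. For Neurod1 it ran from 0.18 to 0.31 over all 18 settings. Neurod1 lies within the span of Cerkl on the same strand, which was at 2.83, 3.13 and 2.78 FPKM in WT and at 2.33, 2.68 and 2.18 FPKM in Myrf-kd.

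Of the amacrine factors, Pax6 and Meis2 had groups that did not overlap. Pax6 (ENSMUSG00000027168), a paired-box factor of amacrine, horizontal and ganglion cells, was at 13, 13.4 and 12.9 FPKM in WT 1, 2 and 3 and at 13.8, 17.5 and 15.0 FPKM in Myrf-kd 1, 2 and 3. Meis2 (ENSMUSG00000027210), a homeodomain factor of GABAergic amacrine cells, was at 9.30, 10.4 and 9.63 FPKM in WT and at 8.78, 8.52 and 8.90 FPKM in Myrf-kd. Pax6 was thus higher and Meis2 lower in Myrf-kd, with fitted folds of 1.16 (interval 1.01 to 1.34) and 0.882 (interval 0.787 to 0.988). Unadjusted p-values by edgeR were 0.0425 and 0.0346, and the adjusted value was 0.666 for both. The antisense gene Pax6os1 was at 4.08, 2.97 and 2.83 FPKM in WT and at 3.86, 3.78 and 4.24 FPKM in Myrf-kd, and its reads may be shared with Pax6. Pax6 is also made in lens and cornea, whose summed markers were given above.

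**Figure D4:**
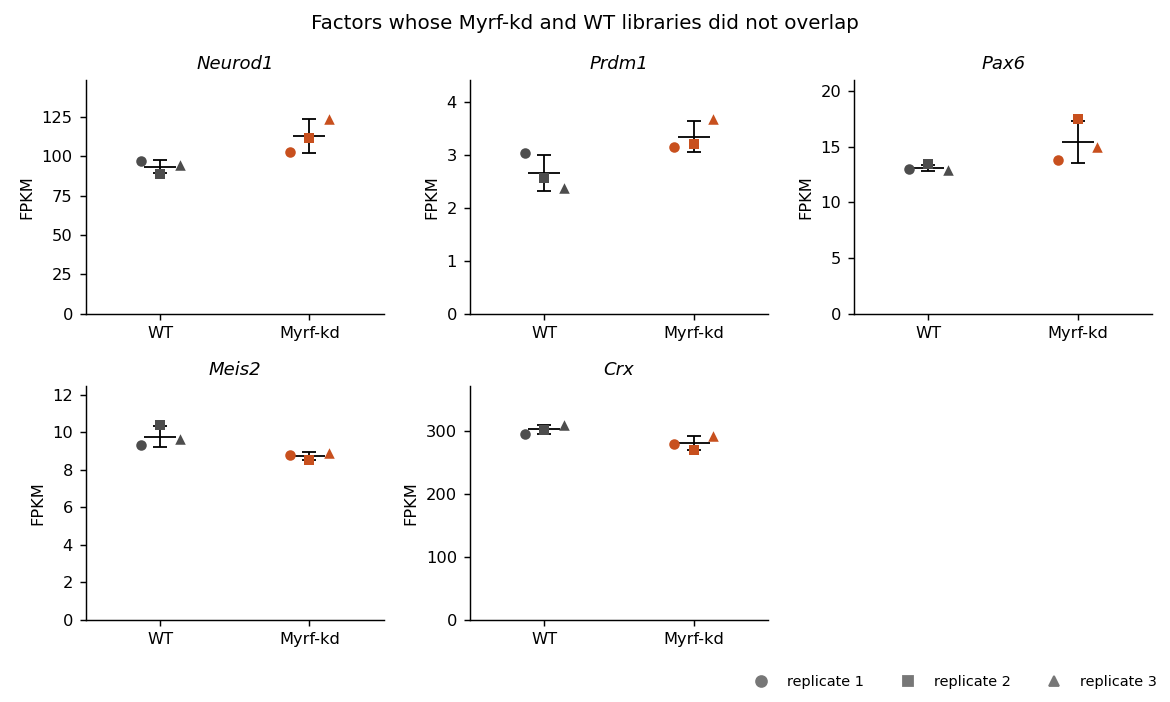
FPKM of the 5 factors whose WT and Myrf-kd libraries did not overlap, with each library as a mark and the mean and SD of 3 libraries as bars, on axes from 0. Neurod1, Prdm1 and Pax6 are higher and Meis2 and Crx lower in Myrf-kd, with fitted folds between 0.882 and 1.25.

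Crx, Prdm1, Neurod1, Pax6 and Meis2 were the 5 of 38 tested factors (13.2%) without overlap, beside 14.5% of all tested genes. The 3 that were higher stand beside 7.96% of all genes and the 2 that were lower beside 6.57%. Thus the share of factors with separated groups was near that of all genes. The other amacrine factors overlapped. Tfap2b, the AP-2 factor with the highest level, was at 18.2, 19.3 and 16.8 FPKM in WT and at 17.5, 17.8 and 19.7 FPKM in Myrf-kd (fold 0.999, interval 0.873 to 1.14). Its paralog Tfap2a lay between 4.49 and 6.35 FPKM and Tfap2c between 2.73 and 4 FPKM over all libraries. Tfap2b exceeded Tfap2a between 3.11- and 4.21-fold in each library. Barhl2, needed for glycinergic amacrine cells, lay between 4.01 and 5.19 FPKM, and Neurod2 between 2.58 and 3.83 FPKM. Summed markers of amacrine cells, 1 of the 7 being Tfap2b, were between 788 and 821 CPM in WT and between 779 and 818 CPM in Myrf-kd.

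For all 6 bipolar factors the 95% interval of the fold excluded a doubling and a halving, as it did for 88.2% of all genes. The same held for every tested amacrine, horizontal and eye field or glia factor. Neurod4, a bHLH factor that promotes bipolar and amacrine fates, was at 41.2, 42.5 and 42.5 FPKM in WT 1, 2 and 3 and at 41.3, 44.7 and 54.2 FPKM in Myrf-kd 1, 2 and 3. Sebox, a homeobox gene grouped here with bipolar cells, was at 24.2, 27.6 and 26.9 FPKM in WT and at 22.2, 22.9 and 34.7 FPKM in Myrf-kd. In both, Myrf-kd 3 was the highest library. Isl1, a LIM homeodomain factor of ON bipolar, ganglion and starburst amacrine cells, followed another order, at 13.1, 14.1 and 17.7 FPKM in WT and at 11.6, 12.1 and 16.8 FPKM in Myrf-kd. The female libraries were the highest in each group for Isl1, and within each sex Myrf-kd was lower, with ratios of 0.874 in males and 0.95 in females. With sex as a covariate Isl1 still did not pass (edgeR adjusted p = 0.672, the lowest of its settings; 0.0366% of all genes passed). Vsx1, of cone bipolar cells, lay between 10 and 11.5 FPKM over all libraries, Lhx4 between 8.86 and 10.3 FPKM and Bhlhe23, needed for rod bipolar cells, between 7.91 and 9.70 FPKM. Vsx1 had the narrowest spread of the 6, with a coefficient of variation of 4.56% over all libraries.

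Of the horizontal cell factors, Prox1 was by far the highest. Prox1, which also marks AII amacrine cells and some bipolar cells, was at 24.2, 24.7 and 21.7 FPKM in WT 1, 2 and 3 and at 23.0, 23.4 and 23.8 FPKM in Myrf-kd 1, 2 and 3 (fold 0.982, interval 0.879 to 1.10). The libraries were close together, with a coefficient of variation of 4.45%. Prox1 is also made in lens, and the part of lens in its values was not tested. Prox1os and Gm28172, on the opposite strand of Prox1, had means of 5.23 and 1.59 FPKM over all libraries. Their reads may be shared with Prox1. Lhx1 was at 1.48, 1.35 and 1.66 FPKM in WT and at 1.74, 1.46 and 1.09 FPKM in Myrf-kd. Onecut1, which is needed for horizontal cells to form, was below the test's minimum, at 1.15, 1.03 and 0.481 FPKM in WT and at 1.18, 0.988 and 0.783 FPKM in Myrf-kd. Its lowest library was WT 3, and between 40 and 91 fragments lay behind its values. Gm20649, which overlaps Onecut1 on the same strand, was at 0.498 FPKM in WT 3 and at most 0.000409 FPKM in the other libraries. Reads of Gm20649 may be shared with Onecut1. Onecut2, also not tested, lay between 0.330 and 0.548 FPKM. With no minimum, both had adjusted p-values of 0.953 and 0.841 in edgeR.

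The 4 ganglion cell factors had overlapping groups and means under 6 FPKM. Pou4f1 (Brn3a) was at 5.82, 6.01 and 5.15 FPKM in WT and at 5.23, 6.03 and 6.38 FPKM in Myrf-kd. Pou4f2 (Brn3b), which drives ganglion cell differentiation, was at 2.97, 3.17 and 2.77 FPKM and at 2.53, 3.25 and 3.70 FPKM. Pou4f1 exceeded Pou4f2 in every library, between 1.72- and 2.07-fold. Pou4f3 (Brn3c) was at 0.994, 1.51 and 1.18 FPKM in WT and at 1.60, 1.32 and 2.15 FPKM in Myrf-kd, from 44 to 102 fragments per library. The groups overlapped, and the interval of its fold reached from 0.895 to 2.07. Eomes (Tbr2), of the ganglion cells that express melanopsin, was at 1.38, 2.16 and 1.96 FPKM in WT and at 2.05, 2.25 and 1.24 FPKM in Myrf-kd. Its lowest library was Myrf-kd 3, which was the highest for the 3 Brn3 genes. Summed ganglion cell markers, 1 of the 7 being Pou4f1, lay between 1014 and 1100.3 CPM in WT and between 1019 and 1059 CPM in Myrf-kd.

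Among factors of the eye field and glia, Six6 and Six3, paralogs that pattern the optic vesicle, were the highest. Six6 was at 13.8, 15.6 and 15.1 FPKM in WT and at 14.6, 12.2 and 15.7 FPKM in Myrf-kd. Six3 was at 9.61, 9.78 and 10.1 FPKM and at 9.01, 10.2 and 12 FPKM. Their ratio kept between 1.20 and 1.62, with Six6 above Six3 in every library. Six3os1, on the opposite strand of Six3, was at 5.40, 5.53 and 4.78 FPKM in WT and at 5.42, 5.80 and 6.14 FPKM in Myrf-kd. Sox2, a stem cell factor kept in Mueller glia and some amacrine cells, was at 8.69, 8.71 and 9.11 FPKM in WT and at 8.42, 7.58 and 9.26 FPKM in Myrf-kd. Rax lay between 6.75 and 8.03 FPKM, Lhx2 between 4.29 and 5.78 FPKM and Sox9, a factor of Mueller glia, between 2.12 and 2.82 FPKM. Raxos1, on the opposite strand of Rax, was at 17.4, 17.3 and 17.3 FPKM in WT and at 18.2, 14.0 and 12.4 FPKM in Myrf-kd. Reads of Raxos1 may be shared with Rax. The Notch effector Hes1 was at 2.89, 2.60 and 2.71 FPKM in WT and at 2.02, 2.35 and 3.92 FPKM in Myrf-kd. The Myrf-kd libraries of Hes1 thus lay on both sides of WT. Lhx9 (0.736 to 1.00 FPKM) was not tested, nor was Pax2, a factor of the optic stalk and its astrocytes, with at most 7 fragments in a library. The 7 Mueller glia markers, none of them among the factors, summed to between 4506 and 4971 CPM in WT and between 4441 and 4772 CPM in Myrf-kd.

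Myrf-kd 3 held the highest FPKM of 22 of the 38 tested factors (57.9%), beside 26.5% of all tested genes. These 22 came from 5 of the 6 classes of tested factors, and no other library held more than 5. Relative to the mean of the other 5 libraries, 33 of 38 factors were above in Myrf-kd 3, with a median log2 ratio of 0.17. Over all genes 52.6% were above, with a median of 0.017. Myrf-kd 1 and 2, of the same genotype, were the lowest library for 10 and 9 factors (26.3% and 23.7%, beside 12.5% and 13.1% of all genes). Myrf-kd 3 is the sole female Myrf-kd library and the one with the highest summed lens markers, and their part in this was not tested. In WT 3, the other female library, 2 factors were highest and 9 lowest (5.26% and 23.7%, beside 15.4% and 16.3% of all genes). This pattern was read after the values were seen and carries no test.

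**Figure D5:**
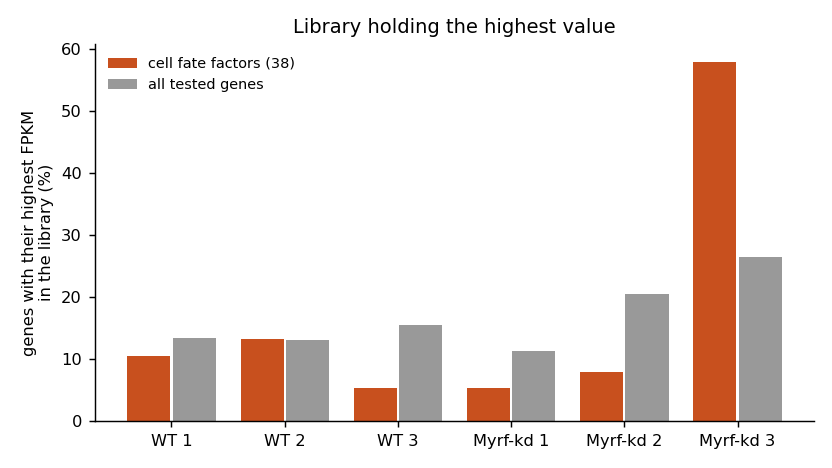
Share of genes (%) that have their highest FPKM in each library, for the 38 tested cell fate factors (orange) and all 13673 tested genes (grey), on an axis from 0. Myrf-kd 3 holds 57.9% of the factors and 26.5% of all genes.

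Of 50 other listed transcription factors of the retina, 34 were tested and 0 passed by edgeR, DESeq2 or limma on FPKM. By edgeR 3 had an unadjusted p under 0.05 (8.82%, beside 7.49% of all genes), with 13 estimates higher, 21 lower and a median log2 fold change of −0.06. Samd7, a photoreceptor repressor induced by CRX, was at 79.0, 81.4 and 88.5 FPKM in WT 1, 2 and 3 and at 76.0, 63.9 and 50.7 FPKM in Myrf-kd 1, 2 and 3. All Myrf-kd libraries lay below WT, with the lowest value in Myrf-kd 3 (fold 0.757, edgeR adjusted p = 0.666). Klf9 was at 45.7, 46.7 and 47.9 FPKM and at 44.2, 38.7 and 33.9 FPKM. Sox8, a glial factor, was at 3.89, 3.00 and 3.97 FPKM in WT and at 4.32, 4.54 and 4.97 FPKM in Myrf-kd, and Tbx3 at 1.96, 2.22 and 1.83 FPKM and at 1.65, 1.71 and 1.73 FPKM. These 4 were among 7 of the 34 tested factors (20.6%) whose groups did not overlap, beside 14.5% of all tested genes, and none had an edgeR adjusted p under 0.666. Myrf-kd 3 held the highest FPKM of 6 of the 34 (17.6%), beside 26.5% of all tested genes. Of the 25 photoreceptor targets below, Myrf-kd 3 was the highest library for 9 (36.0%). It was the lowest library for 10 of these targets (40.0%, beside 24.2% of all genes).

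Photoreceptor genes that CRX, NRL and NR2E3 are known to regulate were read as targets, and of 25 tested 0 passed by edgeR, DESeq2 or limma on FPKM. By edgeR 2 had an unadjusted p under 0.05 (8.00%, beside 7.49% of all genes). The estimate was higher in Myrf-kd for 13 targets and lower for 12, beside 51.0% and 49.0% of all genes. Their median log2 fold change was 0.01. The cone opsin gene Opn1sw was at 125, 119 and 126 FPKM in WT 1, 2 and 3 and at 126, 155 and 157 FPKM in Myrf-kd 1, 2 and 3. The groups overlapped (fold 1.16, edgeR adjusted p = 0.666). Gngt2, a cone transducin subunit, was at 23.5, 24.2 and 23.9 FPKM in WT and at 25.1, 25.9 and 28.8 FPKM in Myrf-kd. The rod phosphodiesterase subunit gene Pde6g was at 441, 471 and 460.2 FPKM in WT and at 490.3, 476 and 601 FPKM in Myrf-kd. Gngt2 and Pde6g were among 3 of the 25 targets whose groups did not overlap, beside 14.5% of all tested genes.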

How the data were processed

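Retinal RNA of 6 libraries was measured, with group and number read from each title. The authors deposited FPKM values and estimated counts per Ensembl gene, per the file headers. Per the submitters' processing notes, which give no roles, the tools were Bowtie 0.12.2, HISAT2 2.0 and StringTie 1.3.0 and the build GRCm38. The deposited counts are whole numbers, so rounding changed none. In 99.9% of 12271 genes with at least 200 units in every library, the count over FPKM lay within 1% of a constant per library after gene length. Counts and FPKM are therefore not independent measures, and a length-scaled estimate can shift where reads are divided among transcripts.

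The 13673 genes whose mean reached 1 FPKM were fitted with edgeR 4.0.16 (quasi-likelihood, TMM, genotype only) with two-sided p-values adjusted by Benjamini and Hochberg's method. DESeq2 1.42.0 and limma 3.58.1 were alternatives. Standard errors are the log2 fold change over the root of F, and 95% intervals use the t distribution. FPKM levels were not rescaled. The fit was tested on simulated counts, with an outcome not reported here. Those counts held no single libraries set apart, as the real values of Esrrb and Mef2c do. All pairs of libraries differed by more than counting noise (chi-square per degree of freedom at least 18.7, at the assumed 4 units per fragment). Table spans equalled GENCODE vM21 for 36 of 42 factors. Values in every library are given for all photoreceptor factors, the highest 3 of each other class and any factor without overlap or with an unadjusted p under 0.05. Of each related list, the 4 genes with the smallest p are named, except 1 that is not reported here. The factors, lists and settings were chosen with earlier results of these data known.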

Additional observations from a re-analysis of the deposited data

How the results depend on the processing

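Over 18 alternatives, 600 of 673 values of the tested factors kept their sign and their side of the threshold. Mef2d accounted for the 2 values that newly passed, without Myrf-kd 3 and with male libraries only, each giving 1 factor past the threshold. Leaving out each library in turn gave 0 to 1 factors, 9 to 16 genes over all, and 0 to 1 photoreceptor targets (1 without WT 2). The count over all genes, 6, was 2 at a mean FPKM of at least 5, 53 with DESeq2 and 22 with male libraries only. With the replicate block it was 0. Deviations from the group means correlated at −0.042, 0.082 and 0.14 for numbers 1, 2 and 3. Myrf-kd 1 correlated best with WT 2 (0.088), while Myrf-kd 2 and 3 correlated best with the WT library of their own number. Both number 3 libraries were female. Since these correlations were low, the replicate numbers were not taken to pair libraries. No factor passed in the replicate block fit. In 71 values the estimate had another sign without passing, in 22 factors. Esrrb was among them (0.83, and −0.26 without Myrf-kd 3 or −0.39 with male libraries only). Mef2c went from 0.15 to −0.22 without WT 3 and −0.17 with male libraries only. The cause was not tested. The test of the sex difference was added after the data were seen. Depth limits Pax2, Onecut1, Pou4f3 and Lhx1, with at most 136 fragments in a library.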
